A study of Mus musculus with 9 samples.

Results

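Th1 is the label that the depositors gave to one class of cells in a single-cell RNA survey of the mouse thyroid, and these cells are thyrocytes, the epithelial cells of the thyroid follicle. A cell was a member if the deposited annotation gave it the label Th1, which held for 1169 of 10186 cells in 16 labels. They carried 23438463 of 63121420 unique molecular identifiers (UMIs, one per captured transcript), so 11.5% of the cells held 37.1% of the transcripts. The mice were male C57BL/6 animals of at least 10 weeks, with an upper age of 12 weeks in one description and 14 weeks in another. Each received 1 intraperitoneal injection and thyroids were taken after 7 days, pooled from 6 mice per sample. The control group, RW, received an antibody against ragweed at 40 mg/kg. The group aJ1aJ2 received antibodies that block the ligands Jag1 and Jag2 at 20 mg/kg each. The group aN1aN2 received antibodies that block the receptors Notch1 and Notch2 at 5 and 10 mg/kg. Each group had 3 pools, and the pool was the replicate throughout. RW 3 and aJ1aJ2 1 have no number in their titles and were named by accession order. The control pools are RW 1, 2 and 3, the ligand pools aJ1aJ2 1, 3 and 4, and the receptor pools aN1aN2 1, 2 and 3.

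Thyrocytes enclose a lumen into which they secrete thyroglobulin, a very large glycoprotein that is folded and disulfide-bonded in the endoplasmic reticulum (ER). Iodide enters through the symporter Slc5a5, is coupled to thyroglobulin with hydrogen peroxide made by dual oxidases, and the iodinated protein is taken back and digested to release thyroid hormone, all under the pituitary hormone TSH and its receptor. Notch receptors are cut when a ligand on a neighbouring cell binds them, and the freed intracellular part switches on genes of the Hes and Hey families. Blocking the ligands or the receptors in the whole animal reaches every tissue, so the thyrocytes were not the only cells treated.

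The labels carry sample numbers in 3 separate ranges, called A, B and C here. RW 3 and aJ1aJ2 1 were in range A, the other RW and aJ1aJ2 pools in range B, and all 3 aN1aN2 pools, with no other sample, in range C. Receptor blockade and range C therefore cannot be told apart in any comparison below, and the labels do not say what the ranges stand for. The pools gave 62 to 193 Th1 cells each, with summed Th1 counts from 872716 to 5233988 UMIs. Of 10171 barcodes, 15 occurred in more than 1 sample, and 1 of them was labelled Th1 in both.

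Thyrocytes of the aN1aN2 pools held fewer UMIs per cell. The median was 17849.5, 12535 and 22558 UMIs in RW 1, 2 and 3, 15314, 14135 and 9968 in the aJ1aJ2 pools, and 6428.5, 5737 and 7558 in the aN1aN2 pools. All 3 receptor pools lay below every other pool, while the ligand pools overlapped with the controls. The mean fell to 0.373 of the control mean with aN1aN2 (two-sided exact permutation test, p = 0.1, the smallest value that 3 against 3 allows) and was 0.745 of it with aJ1aJ2 (p = 0.3, same exact test). Labels differed in this: the ratio of aN1aN2 to RW was 0.601 in EC1 and 0.380 in F. In Th3 (0.873) and EC4 the pools overlapped, and in M the aN1aN2 medians, from 3 to 10 cells a pool, were higher (1370 to 4334 against 805 to 1232 UMIs). Median genes per Th1 cell were 3674 to 5050 in RW, 3227 to 4012 in aJ1aJ2 and 2225.5 to 2603.5 in aN1aN2, but after each cell was thinned to 3000 UMIs all 9 pools lay between 1397.5 and 1455.5 genes, with 80 cells left out, 70 of them in aN1aN2. The mitochondrial share of UMIs had medians of 8.30% to 9.44% in RW, 9.14% to 10.4% in aJ1aJ2 and 7.43% to 8.49% in aN1aN2.

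**Figure D1:**
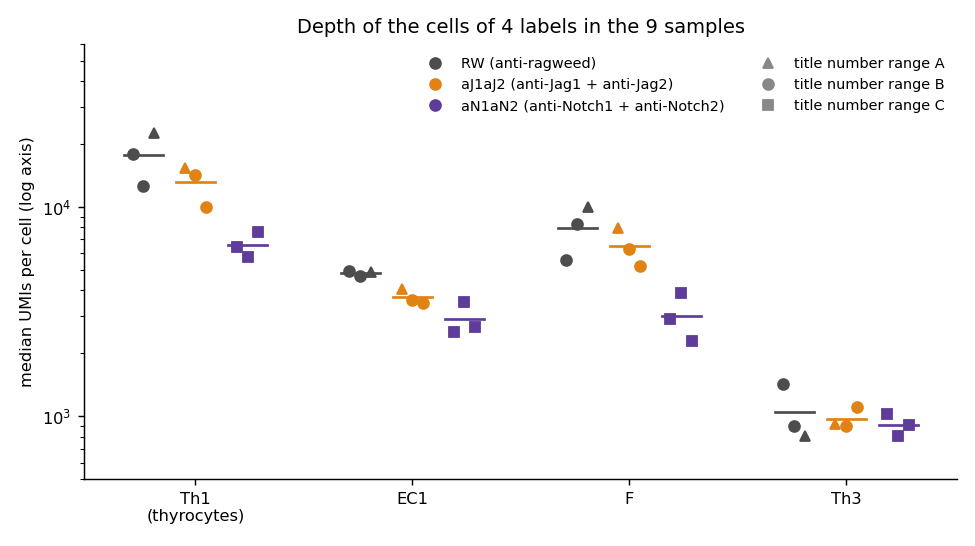
Median UMIs per cell (log axis) of the labels Th1, EC1, F and Th3 in each pool, with colours for the antibody groups, symbols for the title number ranges and bars for group means. In Th1 the 3 aN1aN2 pools lie between 5737 and 7558, below all RW and aJ1aJ2 pools.

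The share of thyrocytes among all cells did not separate the groups. Th1 made up 14.4%, 6.38% and 15.3% of the cells in RW 1, 2 and 3, 15.4%, 10.7% and 7.23% in the aJ1aJ2 pools, and 15.1%, 14.5% and 9.02% in the aN1aN2 pools. Each group held both a high and a low pool, and the ranges overlapped fully. Group means differed by -0.92 percentage points with aJ1aJ2 (two-sided exact permutation p = 1) and by 0.82 points with aN1aN2 (exact p = 0.8), less than the SD of 4.92 points among the RW pools.

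The label fits its genes. In RW, Tg, which encodes thyroglobulin, averaged 90793 CPM (the count scaled to a common library total, with no other scaling in this paragraph), against 2237 CPM in the next label, EC3, and no Th1 cell lacked a Tg UMI. Per cell, Tg took a median of 8.09% to 11.1% of all UMIs across the 9 pools. The transcription factors Foxe1 (588 CPM) and Pax8 (305 CPM) were 65.6 and 47.7 times the highest other label. The iodotyrosine deiodinase Iyd (1219 CPM) and the hormone deiodinase Dio1 (643 CPM) were 38.0 and 45.5 times as high. Ratios were lower for Epcam (9.94), Slc5a5 (6.56) and Hhex (1.59, with EC2 at 101 CPM). Th3, left out of these ratios, was alike, with 79661 CPM of Tg, 379 of Foxe1, 163 of Pax8, 467 of Dio1 and 831 of Iyd, in cells with a mean pool median of 1044 UMIs in RW against 17648 in Th1. The labels Th2 (137 cells) and P (77 cells) had too few cells and were not compared. The label was built from these counts, so these are descriptions and carry no test.

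Other genes set Th1, and Th3 with it, apart from the 12 labels compared and are less tied to hormone production. Of 684 genes at 200 CPM or more in RW thyrocytes, 53 were at least 5 times the highest of 12 other labels. Pools with under 20 cells of a label were left out. In RW 1, 2 and 3, SM held 8, 5 and 31 cells and T2 held 0, 272 and 14. The largest ratio, 114, belonged to Grp, which encodes gastrin-releasing peptide (1042 CPM, and 1447 CPM in Th3, which the ratios leave out). Its UMIs were uneven among cells: 728 of 1169 held any, and 20 cells held 61.2% of them. The bicarbonate transporter Slc4a5 was at 287 CPM with a ratio of 74.9. Asgr1, a subunit of the asialoglycoprotein receptor (674 CPM, ratio 51.3), Ager, the receptor for glycation end products (1126 CPM, ratio 48.0, and 1259 CPM in Th3), the folate receptor Folr1 (567 CPM, ratio 39.6) and the kidney and thyroid cadherin Cdh16 (440 CPM, ratio 38.4) followed. The UMIs of some markers of other tissues lay in few Th1 cells: 49 cells held 95.6% of the UMIs of 5 C cell markers, and 84 cells held 94.2% of those of 5 endothelial markers. Others were spread over many cells: the haemoglobin gene Hbb-bs had a UMI in 82.9% of Th1 cells, S100b in 65.0% and the parathyroid hormone gene Pth in 42.1%.

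Across the whole transcriptome of thyrocytes, receptor blockade went with far more calls than ligand blockade. A gene was called if edgeR's quasi-likelihood test on summed counts gave a Benjamini-Hochberg adjusted p under 0.05. Of 10627 genes tested, 3653 (34.4%) were called for aN1aN2 against RW, 1814 higher (17.1%) and 1839 lower (17.3%). For aJ1aJ2 against RW the count was 65 (0.612%), 41 higher (0.386%) and 24 lower (0.226%). Both comparisons use the same RW pools, so they are set side by side below and not tested against each other. The direct comparison, aN1aN2 against aJ1aJ2, gave 2374 calls (22.3%).

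The aJ1aJ2 count changed with single pools and with the pools and terms in the fit. Without aJ1aJ2 3 it was 1, with S100a6 the only gene named below that was still called, and without aJ1aJ2 1 it was 530. It was 27, 18 and 104 without RW 1, 2 and 3, 17 without aJ1aJ2 4, and 39 and 35 without aN1aN2 1 and 2. With only the RW and aJ1aJ2 pools in the fit it was 26 of 11341 genes (0.229%), all among the 65. With the title number range added to that fit as a term it was 135 of 11341 (1.19%), 61 of them among the 65. In the 4 pools of range B alone it was 649 of 11395 (5.7%), 64 of them among the 65. Without 195 cells that held 20 or more UMIs of another cell type's markers it was 191 of 9478 (2.02%), 61 of them among the 65. The last 2 settings were chosen after the data were seen. Of the 29 genes called with aJ1aJ2 and followed over 20 other settings, none kept its call in every one. Losses are spelled out below for some of these genes only.

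In the aN1aN2 pools the genes that serve thyroid hormone production moved down at several steps, while the one for thyroglobulin did not pass the test. Of the iodide transport list, 2 of 5 tested genes fell and none rose, against 17.3% lower and 17.1% higher over all genes. Slc5a5, the sodium/iodide symporter that brings iodide into the cell, was at 283, 252 and 196 CPM (from here on scaled by TMM factors) in RW 1, 2 and 3, at 183, 87.3 and 62.4 in aJ1aJ2 1, 3 and 4, and at 18.7, 15.8 and 9.67 in the aN1aN2 pools. The receptor pools lay below all others, and each ligand pool lay below each control. Its log2 change was -3.96 ± 0.36 (SE; adjusted p = 9.95e-07) with aN1aN2 and -1.15 ± 0.27 (adjusted p = 0.0721, not called) with aJ1aJ2. With cells thinned to 3000 UMIs, Slc5a5 was seen in 37.8%, 34.9% and 32.1% of RW thyrocytes, 30.0%, 16.8% and 14.8% in aJ1aJ2 and 6.87%, 4.90% and 2.22% in aN1aN2. In EC1 cells, which should lack the gene, the share was at most 1.25%. The anion transporter Slc26a7 fell less, from 713, 603 and 586 CPM to 333, 356 and 400.1 (log2 change -0.81 ± 0.11, adjusted p = 5.46e-05). Ano1, Slc5a8 and Kcnq1 did not pass, and Slc26a4, with 7 UMIs in all pools, and Kcne2, with 0, were too low to test.

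**Figure D2:**
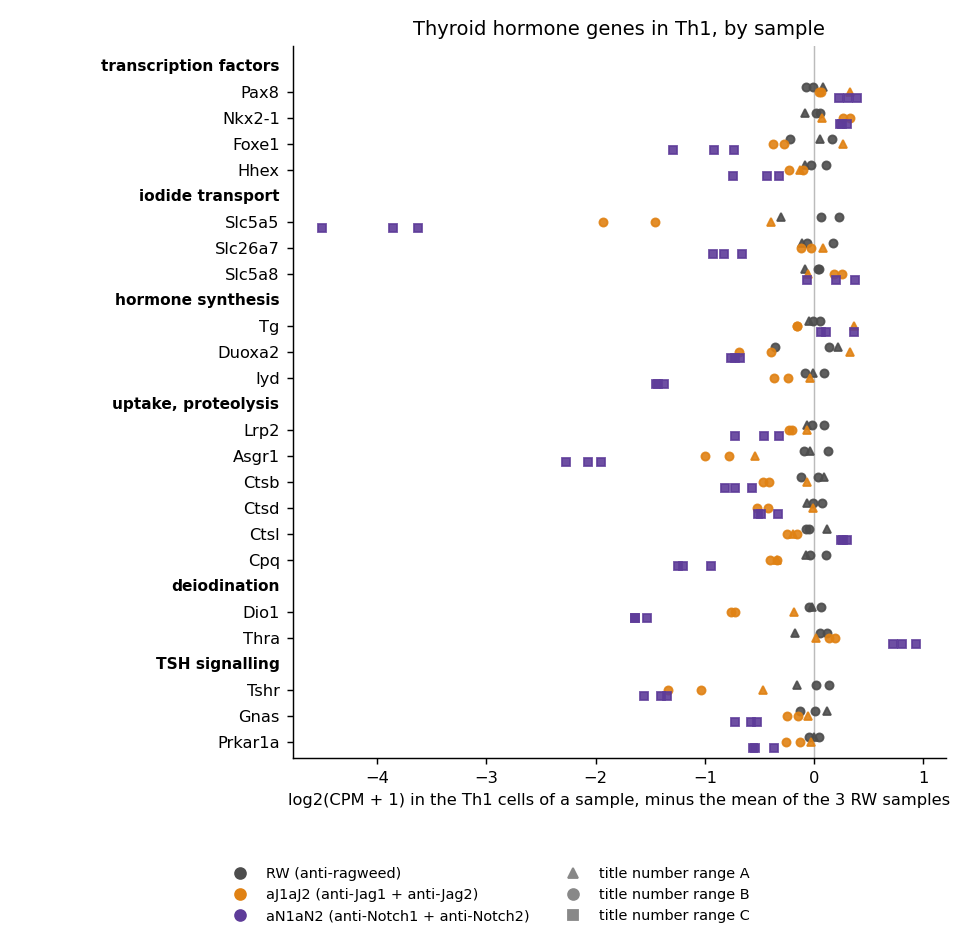
Differences of log2(CPM + 1) from the RW mean (x axis) for genes of thyroid hormone production, grouped by role, with 1 point per pool, colours for groups and symbols for title number ranges. Slc5a5, Asgr1, Dio1, Iyd and Tshr show the aN1aN2 pools to the left of every RW pool, and Tg does not.

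For hormone synthesis, 3 of 5 tested genes fell and none rose, against 17.3% lower over all genes. Tg was at 91334, 95135 and 88748 CPM in RW and at 96129.6, 98929.7 and 117874 CPM in aN1aN2 (log2 change 0.19 ± 0.13, adjusted p = 0.305). The receptor pools were all a little higher, by less than the test resolves. Iyd, which recovers iodide from unused iodotyrosines, went from 1312, 1163 and 1221 CPM to 452, 457 and 475 CPM (-1.42 ± 0.11, adjusted p = 1.54e-07). The receptor pools sat below every control. Duoxa2, the maturation factor of Duox2, fell by 0.74 on the log2 scale, but the call was lost without cells that held other markers (adjusted p = 0.299) and without RW 2, RW 3 or any one of the aN1aN2 pools (adjusted p of 0.0524 to 0.106). Duox2 itself did not pass.

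For uptake and digestion of thyroglobulin, 8 of 13 tested genes fell and 1 rose with aN1aN2 (17.3% lower and 17.1% higher over all genes), with a median log2 change of -0.45 against 0.02 over all genes. Asgr1, which binds thyroglobulin, was at 637, 742 and 664 CPM in RW, 466, 396 and 341 in aJ1aJ2 and 175, 140.0 and 161 in aN1aN2. The 3 groups did not overlap, and both changes were called (-0.76 ± 0.12, adjusted p = 0.0109 with aJ1aJ2 and -2.10 ± 0.13, adjusted p = 2.77e-08 with aN1aN2). Cpq, a carboxypeptidase that cuts thyroglobulin fragments, fell by 1.14, and the protease Ctsb by 0.71. Lrp2, the uptake receptor megalin, fell by 0.51. Ctsl was the 1 member called higher (0.27), a call lost without RW 1 (adjusted p = 0.11) and in 6 other settings.

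Of the genes for deiodination and hormone response, Dio1, which turns thyroxine into the active hormone, was at 679.6, 628 and 641 CPM in RW, 571, 384 and 392 in aJ1aJ2 and 224, 207 and 208 in aN1aN2 (-1.61 ± 0.14, adjusted p = 5.96e-07 with aN1aN2). With aJ1aJ2 its change of -0.54 ± 0.13 did not pass (adjusted p = 0.0785), although the groups did not overlap. Thra, a thyroid hormone receptor, rose by 0.84 with aN1aN2, from 46.0 to 56.8 CPM to 86.6 to 100.4 CPM.

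Of the TSH receptor and cyclic AMP list, 6 of 13 tested genes fell and 1 rose with aN1aN2, against 17.3% lower and 17.1% higher over all genes. Tshr, the receptor for TSH, was at 107, 98.5 and 87.4 CPM in RW, 69.9, 47.0 and 37.9 in aJ1aJ2 and 32.4, 37.6 and 36.3 in aN1aN2. Every treated pool lay below every control, and both comparisons were called (-0.93 ± 0.17, adjusted p = 0.0235 with aJ1aJ2 and -1.47 ± 0.19, adjusted p = 3.42e-05 with aN1aN2). The aJ1aJ2 call was lost without RW 1, RW 2, aJ1aJ2 3 or aJ1aJ2 4 (adjusted p of 0.0879 to 0.18), and within range A the difference was smaller, 69.9 against 87.4 CPM, than within range B, 42.5 against 103 CPM. Gnas, the stimulatory G protein, fell by 0.61 and the kinase subunit Prkar1a by 0.48 with aN1aN2. The adenylate cyclase Adcy6 was the member that rose (0.59), a call lost without cells that held other markers (0.51, adjusted p = 0.0569).

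The 4 listed thyroid transcription factors split. Foxe1 was at 507, 664 and 613 CPM in RW, 709, 456 and 488 in aJ1aJ2 and 354, 241 and 312 in aN1aN2, where it fell by 0.97 on the log2 scale (adjusted p = 5.12e-04). The receptor pools lay below all 6 others. Hhex fell by 0.49. Pax8 (0.31 ± 0.11, adjusted p = 0.0314) and Nkx2-1 (0.27 ± 0.10, adjusted p = 0.0473) were called higher, but the calls were lost in 8 (Pax8) and 14 (Nkx2-1) of 18 other settings, among them DESeq2 (adjusted p of 0.0527 for Pax8 and 0.0759 for Nkx2-1). None of the 4 was called with aJ1aJ2, where 0.612% of all genes were.

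The chaperones and folding enzymes of the ER fell together in the aN1aN2 thyrocytes. Of the 21 listed genes, all tested, 20 were called lower and none higher, against 17.3% lower over all genes, and in all 21 every aN1aN2 pool lay below every RW pool, as in 23.7% of all genes tested. The median log2 change was -2.42, against 0.02 over all genes. The count of 20 was the same without cells that held other markers, in cells of at least 3000 UMIs and with 62 cells drawn per pool. Over all genes, 1406 of 9478, 1767 of 10569 and 1348 of 9694 were called lower in these settings. Ero1l, an oxidase of the ER, was the 1 member that was not called (-0.19).

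Sdf2l1, a partner of the chaperone Hspa5, was at 539.6, 780.3 and 652 CPM in RW, 391, 264 and 333 in aJ1aJ2 and 25.2, 19.4 and 23.0 in aN1aN2. Each group stood clear of the next, and the log2 change was -4.86 ± 0.20 with aN1aN2 (adjusted p = 1.70e-09) and -0.998 ± 0.15 with aJ1aJ2 (adjusted p = 0.00933). Hspa5, the ER member of the Hsp70 family also called BiP, was at 2103, 3016 and 2745 CPM in RW, 2119.8, 1561 and 1745 in aJ1aJ2 and 363, 261 and 347 in aN1aN2. Here aJ1aJ2 1 overlapped with RW 1, and the change was -3.02 ± 0.17 with aN1aN2 (adjusted p = 1.07e-08) and -0.54 ± 0.15 with aJ1aJ2 (adjusted p = 0.133). After thinning to 3000 UMIs, Hspa5 was seen in 99.4% to 100% of RW thyrocytes and in 57.8% to 71.1% of aN1aN2 thyrocytes. Sdf2l1 went from 75% to 84.3% of cells in RW to 51.1% to 52.9% in aJ1aJ2 and 8.82% to 11.1% in aN1aN2. The Hsp90 of the ER, Hsp90b1, was at 3049, 3662 and 3562 CPM in RW, 2559, 1890.0 and 2077 in aJ1aJ2 and 458, 377 and 424 in aN1aN2. Its groups were apart, and both comparisons were called (-0.65 ± 0.12, adjusted p = 0.0246 with aJ1aJ2 and -3.03 ± 0.13, adjusted p = 2.26e-09 with aN1aN2). Calr, a lectin chaperone for glycoproteins, fell by 3.24 with aN1aN2, the disulfide isomerases Pdia6 by 3.18 and Pdia4 by 3.00, the prolyl isomerase Fkbp11 by 3.00 and the chaperone Hyou1 by 2.99. Smaller decreases were found for Canx (0.91), P4hb (0.86), Dnajb9 (0.82) and Txndc5 (0.70).

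With aJ1aJ2, 3 of the 21 were called lower (Sdf2l1, Pdia4 and Hsp90b1) and none higher, against 0.226% lower over all genes, with a median of -0.49. In 14 of the 21 every aJ1aJ2 pool lay below every RW pool, as in 7.6% of all genes tested. With only the RW and aJ1aJ2 pools in the fit the number called was 1, Sdf2l1 (0.0882% lower over all genes), and with the title number range added to that fit it was 11 (0.688%). It was 14 in range B alone (2.96%), 13 without cells that held other markers (1.16%) and 2 with 62 cells drawn per pool (26 lower of 9694 genes). Pdia4 and Hsp90b1 lost their calls without RW 2, aJ1aJ2 3 or aJ1aJ2 4 (adjusted p of 0.113 to 0.156).

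**Figure D3:**
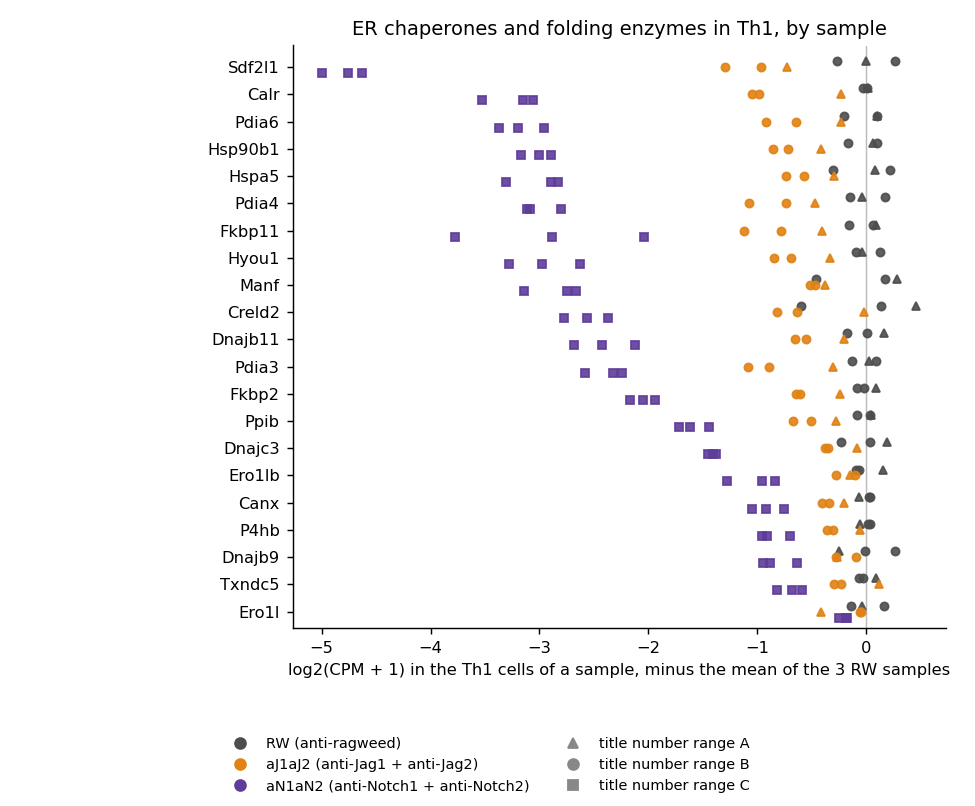
Differences of log2(CPM + 1) from the RW mean (x axis) for the 21 ER chaperones and folding enzymes, sorted by the log2 change with aN1aN2, with 1 point per pool. The aN1aN2 pools lie left of the RW pools for all 21 genes, from Sdf2l1 at the top to Ero1l at the bottom.

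Because these genes moved together, their promoters were searched for the ER stress response element, CCAAT followed by 9 bases of any kind and then CCACG, on both strands of the 300 bases from 250 before to 50 after each start site (RefSeq, GRCm38.p6). It was found in 39 of 32851 promoters (0.119%), in 17 of 8267 genes tested in Th1 (0.206%) and in 8 of the 19 listed chaperones with a promoter in the table (42.1%): Hspa5, Hsp90b1, Calr, Canx, Pdia6, Dnajc3, Creld2 and Ero1lb. Sdf2l1, with the largest decrease of the chaperones with aN1aN2 (log2 change -4.86), had no match, nor did Pdia4, Fkbp11 and Dnajb11 (-2.42). Canx (-0.91), Ero1lb (-1.04) and Dnajc3 (-1.43) had one, and a link between match and size of decrease was not tested. The 4 stretches below were picked for the largest decreases with aN1aN2 among the chaperone and ER-associated degradation genes with a match. They run 5′ to 3′ on the gene's strand and have the fixed letters of each match in capitals.
Derl3, chr10:75893222-75893280, plus strand: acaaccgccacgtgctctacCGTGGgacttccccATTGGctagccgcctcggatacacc
Calr, chr8:84847055-84847113, minus strand: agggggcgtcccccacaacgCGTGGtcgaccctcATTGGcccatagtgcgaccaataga
Pdia6, chr12:17266471-17266529, plus strand: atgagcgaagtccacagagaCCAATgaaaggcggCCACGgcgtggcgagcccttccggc
Hsp90b1, chr10:86705513-86705676, minus strand: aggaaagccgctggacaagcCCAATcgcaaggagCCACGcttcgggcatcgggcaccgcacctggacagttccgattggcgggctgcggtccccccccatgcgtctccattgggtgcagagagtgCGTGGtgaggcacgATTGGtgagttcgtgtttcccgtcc
Pdia6 holds the element on the gene's own strand, Derl3 and Calr on the opposite one, and Hsp90b1 once on each. All lie before the start site. The element was in 2 of 9 promoters of the ER-associated degradation list and in none of 18 of the translocation list or 19 of the ER to Golgi list. A match describes letters in a window and says nothing of binding.

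The rest of the secretory machinery fell too with aN1aN2, by less. For ER-associated degradation, which removes misfolded proteins, 9 of 10 genes fell and none rose (median -0.81), against 17.3% lower over all genes, the share that the next 2 lists are read against too. Derl3, a channel component, was at 164, 252 and 202 CPM in RW, 123, 78.0 and 81.1 in aJ1aJ2 and 11.5, 4.85 and 16.9 in aN1aN2. The groups did not overlap, and its changes were -4.32 ± 0.30 (adjusted p = 7.12e-08) with aN1aN2 and -1.13 ± 0.21 (adjusted p = 0.0234) with aJ1aJ2, the latter lost with DESeq2 (adjusted p = 0.076), with Th3 added (0.0678), and without RW 2 (0.131), aJ1aJ2 3 (0.171) or aJ1aJ2 4 (0.118). Selenos fell by 1.11 and Sel1l by 0.84. For translocation into the ER and N-glycosylation, 18 of 23 fell and none rose (median -0.86). Among them the glycosylation subunits Rpn1 and Ostc fell by 1.99 and 1.82 and the signal peptidase subunit Spcs2 by 1.42, while Sec62 (0.09) and Stt3b (-0.03) did not pass. For transport from ER to Golgi, 15 of 22 fell and 1 rose (median -0.70). Tmed3 fell by 1.78 and the cargo receptor Lman1 by 1.37, and the retrieval receptor Kdelr1 rose by 0.44. With aJ1aJ2, 1 gene of these 3 lists, Derl3, was called, against 0.226% lower over all genes.

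Of 10 tested regulators of the unfolded protein response, 2 fell and 3 rose with aN1aN2, against 17.3% lower and 17.1% higher over all genes. Xbp1, the factor whose spliced form switches on ER genes, was at 219, 292 and 322 CPM in RW and 187, 125 and 164 in aN1aN2 (-0.81 ± 0.15, adjusted p = 9.62e-04). Ern1, the kinase and nuclease that splices it, rose from 30.6, 28.3 and 23.8 CPM to 58.7, 60.0 and 48.4 CPM (1.05 ± 0.15, adjusted p = 8.20e-05). The receptor pools were below all controls for Xbp1 and above them for Ern1. Ddit3, which promotes death under ER stress, fell by 1.44, with RW 3 at 25.5 CPM apart from RW 1 and 2 at 79.4 and 68.8 CPM. Creb3l2 rose by 1.04. Atf4 and Atf6 did not pass.

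The decrease of the ER chaperones was larger in thyrocytes than in the label EC1, and this difference was tested with the pool as a block. With aN1aN2, 18 of the 21 chaperones changed to a lower level relative to EC1 and none to a higher one, against 3.81% lower of 11372 genes. Hspa5 was at 319, 393 and 417 CPM in EC1 of RW 1, 2 and 3 and at 231, 223 and 219.6 CPM in EC1 of the aN1aN2 pools. It therefore fell in EC1 as well, by 0.75, but in thyrocytes 2.21 ± 0.16 further (adjusted p = 5.48e-09). Manf, an ER protein released under stress, had a change of -0.43 in EC1 that did not pass (adjusted p = 0.0629) and fell 2.38 ± 0.21 further in Th1. Calr fell by 1.45 in EC1, and 1.74 ± 0.17 further in Th1. Against the label F, 10 of 21 chaperones were lower and P4hb higher, beside 2.54% lower and 2.89% higher of 10356 genes. Both tests share the Th1 cells.

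Over all genes, 988 of 11372 (8.69%) changed differently in Th1 and EC1 with aN1aN2, a count of 572 without aN1aN2 1, and 562 of 10356 (5.43%) differed between Th1 and F, a count of 354 without aN1aN2 2. With aJ1aJ2 the EC1 count was 42 (0.369%). It was 16 without aJ1aJ2 3, 24 without RW 2 and 83 without aJ1aJ2 1. Of the genes called in Th1, 660 of 3616 differed from EC1 with aN1aN2 and 9 of 65 with aJ1aJ2. These genes were picked by their Th1 changes in the same pools, which raises such counts. They are therefore descriptions and are not set against the shares over all genes. Xbp1 moved in opposite directions, rising by 0.67 in EC1 with aN1aN2 and falling in Th1, with a difference of -1.41 ± 0.18 (adjusted p = 1.62e-05).

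Genes of fatty acid use and fasting rose in the aN1aN2 thyrocytes: 10 of 17 tested members were higher and none lower, against 17.1% higher over all genes. Pdk4, a kinase that holds back glucose oxidation, was at 14.4, 13.5 and 9.17 CPM in RW, 2.69, 4.42 and 15.2 in aJ1aJ2 and 184, 167 and 216 in aN1aN2. The receptor pools were far above the rest, and the change was 3.96 ± 0.28 (adjusted p = 8.51e-08). Txnip, which limits glucose uptake, was at 369, 391 and 221 CPM in RW and at 2952, 2909 and 2971 CPM in aN1aN2 (3.18 ± 0.24, adjusted p = 1.68e-07). The 3 receptor pools were close together, and every one of their thinned thyrocytes held a Txnip UMI, against 51.6% to 65.1% in RW. Acot1, a thioesterase, rose by 2.09 and Cpt1a, which admits fatty acids to mitochondria, by 0.81. Hadha, Hadhb, Acadvl and Cpt2 did not pass. With aJ1aJ2 only Acot2 of this list was called, lower by 0.72 on the log2 scale, against 0.226% lower over all genes.

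In EC1 with aN1aN2, Txnip rose as well, by 1.96, and the rise in Th1 was 1.32 ± 0.18 larger (adjusted p = 3.35e-05).

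Of 12 genes of the glucocorticoid response list, 7 rose and none fell with aN1aN2, against 17.1% higher over all genes, with a median of 1.30. Klf15, a transcription factor, was at 4.88, 5.40 and 5.85 CPM in RW, 10.8, 24.7 and 18.1 in aJ1aJ2 and 54.3, 71.5 and 62.9 in aN1aN2. The groups stood apart in this order, and both changes were called (1.80 ± 0.27, adjusted p = 0.00933 with aJ1aJ2 and 3.53 ± 0.25, adjusted p = 1.18e-07 with aN1aN2). Fkbp5, a co-chaperone of the glucocorticoid receptor, was at 8.88, 12.8 and 12.1 CPM in RW, 12.4, 14.0 and 12.3 in aJ1aJ2 and 71.9, 101 and 66.5 in aN1aN2 (2.88 ± 0.19, adjusted p = 5.12e-08). Tsc22d3, also called Gilz, rose by 2.84, Zbtb16 by 2.19 and Klf9 by 1.42. The receptor gene itself, Nr3c1, did not pass. The metallothionein Mt1 went the other way with aJ1aJ2, falling by 0.67 on the log2 scale from 11694, 11109 and 8831 CPM to 6858, 6719 and 6284 CPM (adjusted p = 0.0174). That call was lost without RW 1, RW 2, aJ1aJ2 3 or aJ1aJ2 4 (adjusted p of 0.0728 to 0.114).

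Fkbp5 was not higher in thyrocytes alone. In EC1, it went from 26.6, 53.1 and 38.6 CPM in RW to 489, 563 and 544 CPM in aN1aN2, and its rise in Th1 was smaller by 0.92 ± 0.23 (adjusted p = 0.0134). Relative to EC1, the change in Th1 was lower for 4 of the 12 genes (Fkbp5, Errfi1, Mt1 and Mt2) and higher for 1, Tsc22d3, against 3.81% lower and 4.88% higher over all genes.

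Genes of the circadian clock were the list most often called with aJ1aJ2: 5 of 14 tested members rose and none fell, against 0.386% higher over all genes, with a median of 1.15. Tef, a factor of the clock's output, was at 9.10, 11.5 and 23.6 CPM in RW, 45.2, 70.3 and 61.9 in aJ1aJ2 and 110.3, 105 and 115 in aN1aN2. The groups were apart, with RW 3 the highest control and aJ1aJ2 1 the lowest ligand pool, the 2 pools of range A. Its changes were 1.94 ± 0.26 (adjusted p = 0.00647) with aJ1aJ2 and 2.81 ± 0.26 (adjusted p = 1.21e-06) with aN1aN2. Within range A it was at 45.2 against 23.6 CPM, and within range B at 66.1 against 10.3 CPM. Nr1d2, a repressor of the clock loop, rose by 1.36 with aJ1aJ2 and 1.21 with aN1aN2, Per3 by 1.95 and 1.96, and Cry2 by 1.19 and 1.67. The aJ1aJ2 call of Per3 was lost in 5 of 20 other settings, among them leaving out RW 2 (adjusted p = 0.0671), aJ1aJ2 3 (0.132) or aJ1aJ2 4 (0.0599). Hlf was called higher in both (0.84 and 0.61), but its aJ1aJ2 call was lost in 14 of 20 other settings, among them the fit of RW and aJ1aJ2 pools without and with the range term (adjusted p = 0.126 and 0.055) and DESeq2 (adjusted p = 0.0664). Without cells that held other markers its change with aN1aN2 was -0.06 (adjusted p = 0.927).

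Dbp, another output factor, shows how far the controls differed. It was at 9.10 and 9.45 CPM in RW 1 and 2, at 88.5 in RW 3, at 166, 148 and 159.9 in aJ1aJ2 and at 124, 128 and 119.7 in aN1aN2. All treated pools were above all controls, but RW 3 lay nearer to the treated pools on the log scale, and the aJ1aJ2 change of 1.98 ± 0.51 did not pass (adjusted p = 0.0973). Arntl, the core activator also called Bmal1, ran the opposite way: 27.1 and 35.1 CPM in RW 1 and 2, 8.39 in RW 3 and 4.67 to 5.92 in aJ1aJ2, with a change of -2.04 ± 0.45 (adjusted p = 0.0531). With aN1aN2, 10 of the 14 rose and Clock fell by 0.59, against 17.1% higher and 17.3% lower over all genes. The time of day at which the mice were killed is not given in the sources used here, and its part in these values was not tested. The rise of Tef with aJ1aJ2 was also present in EC1 (1.77), with a difference between the labels of 0.22 ± 0.26 (adjusted p = 0.897).

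**Figure D4:**
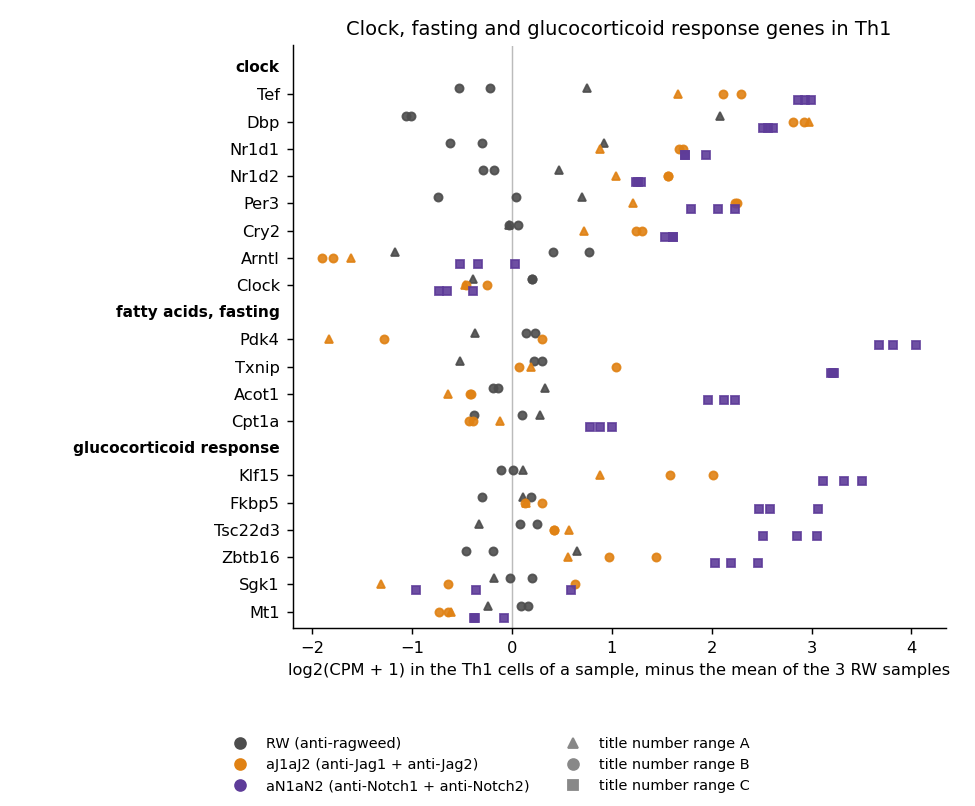
Differences of log2(CPM + 1) from the RW mean (x axis) for genes of the clock, fatty acid use and fasting, and the glucocorticoid response, with 1 point per pool. Pdk4, Txnip and Fkbp5 separate the aN1aN2 pools from all others, while for Dbp and Arntl the control RW 3 (dark triangle) lies apart from RW 1 and 2.

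Nuclear genes of the respiratory chain were lower with aN1aN2 in most cases: 27 of 36 complex I subunits fell and 1 rose (median -0.63), and 29 of 38 genes of complexes II to V and cytochrome c fell and 1 rose (median -0.62), against 17.3% lower over all genes. Ndufa1, a small complex I subunit, was at 1018, 930.1 and 1069 CPM in RW, 852, 769 and 713 in aJ1aJ2 and 247, 263 and 276 in aN1aN2 (-1.94 ± 0.11, adjusted p = 1.07e-08). The groups did not overlap, although aJ1aJ2 did not pass against RW (adjusted p = 0.115). Cycs, cytochrome c itself, fell by 1.82. Ndufa6 (0.85) and Atp5g2 (1.43) rose. Of the 13 genes of the mitochondrial genome 4 fell and 3 rose, against 17.3% and 17.1% over all genes: mt-Nd2 fell by 0.58, and mt-Atp6 rose by 1.23 with RW 3 far below the other controls, at 1544 CPM against 4404 and 3595. No gene of these lists was called with aJ1aJ2, where 0.612% of all genes were.

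The enzymes that handle hydrogen peroxide, which thyrocytes make to iodinate thyroglobulin, were lower with aN1aN2 in 11 of 21 cases, against 17.3% over all genes, and higher in 4, near the 17.1% over all genes. Sod3, the secreted superoxide dismutase, was at 119, 97.2 and 103 CPM in RW, 65.6, 60.0 and 39.1 in aJ1aJ2 and 24.1, 24.2 and 27.8 in aN1aN2. The 3 groups did not overlap, with changes of -0.94 ± 0.15 (adjusted p = 0.0123) and -2.09 ± 0.19 (adjusted p = 7.70e-07). Thioredoxin, Txn1, fell by 1.20 and heme oxygenase, Hmox1, by 1.54. Selenop, a selenium carrier, rose by 1.76, Prdx6 by 1.65 and the cytosolic Sod1 by 0.84.

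**Figure D5:**
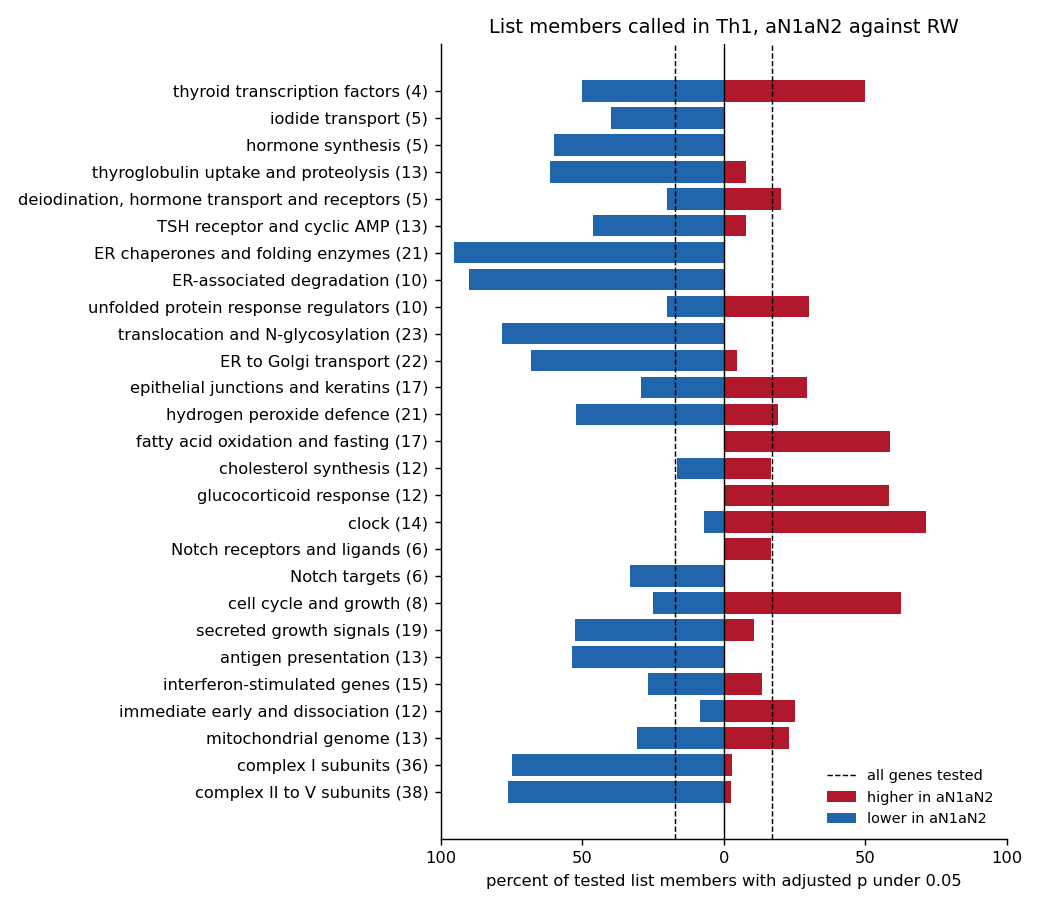
Percent of tested members of each gene list called lower (blue, left) or higher (red, right) in Th1 for aN1aN2 against RW, with the number tested in brackets and dashed lines at 17.3% and 17.1% for all genes. The 21 ER chaperones have the largest lower share, and the clock list has the largest higher share.

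Of 17 junction and keratin genes 5 were higher and 5 lower with aN1aN2, against 17.1% higher and 17.3% lower over all genes. Ocln, the tight junction protein occludin, was at 16.6, 14.8 and 12.3 CPM in RW, 36.0, 29.8 and 25.7 in aJ1aJ2 and 26.3, 30.3 and 47.1 in aN1aN2. Every treated pool was above every control, and both changes were called (1.07 ± 0.21, adjusted p = 0.0359 and 1.18 ± 0.23, adjusted p = 9.59e-04). The aJ1aJ2 call was lost in 8 of 20 other settings, among them leaving out any 1 RW pool (adjusted p of 0.0607 to 0.117). The claudins Cldn3 and Cldn4 rose by 0.72 and 0.83 with aN1aN2 and Cldn7 fell by 0.83. Krt18 rose by 0.60, and its partner Krt8 fell by 0.79. Cdh16 fell by 1.36 and Epcam by 0.25.

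Among secreted growth signals 10 of 19 fell and 2 rose with aN1aN2, against 17.3% lower and 17.1% higher over all genes. Vegfa, the signal to blood vessels, was at 537, 519 and 439 CPM in RW, 509.8, 499 and 539 in aJ1aJ2 and 246, 261 and 254 in aN1aN2 (-0.97 ± 0.10, adjusted p = 4.79e-06). Of the ligand pools, aJ1aJ2 1 and 3 lay among the controls and aJ1aJ2 4 just above them. Ccn4, a matricellular protein, was at 211, 135 and 144 CPM in RW, 195, 167 and 203 in aJ1aJ2 and 15.9, 15.1 and 16.9 in aN1aN2 (-3.38 ± 0.20, adjusted p = 2.57e-08). The natriuretic peptide Nppc fell by 3.63 and Igfbp5 by 1.95. Fgfbp1, which releases fibroblast growth factors from the matrix, was at 5.33, 12.8 and 3.90 CPM in RW, 8.07, 13.5 and 19.8 in aJ1aJ2 and 134, 147 and 189 in aN1aN2 (4.70 ± 0.29, adjusted p = 2.57e-08). Btc, betacellulin, was the only member called with aJ1aJ2 (-1.29 ± 0.23, adjusted p = 0.0174), against 0.226% lower over all genes. The call was lost with 62 cells drawn per pool (-0.87, adjusted p = 0.315), without RW 2 (adjusted p = 0.0754) and without aJ1aJ2 3 (adjusted p = 0.132).

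Of 8 tested cell cycle genes 5 rose and 2 fell with aN1aN2, against 17.1% higher and 17.3% lower over all genes. Cyclin D1, Ccnd1, fell by 1.79, and the inhibitors Cdkn1a, Cdkn2c, Cdkn1c and Cdkn1b rose by 1.90, 1.07, 1.27 and 0.88. The proliferation genes Mki67, Top2a and Cdk1 were too rare to test, and RW 3 alone held 51 of 58, 79 of 89 and 47 of 55 of their UMIs.

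Of 6 tested receptors and ligands of the blocked pathway, 1 rose and none fell with aN1aN2, against 17.1% higher and 17.3% lower over all genes. Notch2 was that gene: 58.1, 55.3 and 48.8 CPM in RW, 52.2, 41.9 and 52.5 in aJ1aJ2 and 93.8, 92.7 and 135 in aN1aN2 (0.96 ± 0.16, adjusted p = 2.52e-04). The antibodies block the proteins, so these transcript levels do not check the treatment. Notch1 (-0.25), Jag1 (-0.14), Jag2 (0.10), Dll1 (0.80) and Notch4 (0.58) did not pass. With aJ1aJ2 none of the 6 was called, where 0.612% of all genes were. Among 6 tested targets, Heyl (-0.99) and Dtx4 (-0.84) were called lower with aN1aN2, both at under 17 CPM in every pool, 2 of 6 against 17.3% lower over all genes. Both calls were lost with DESeq2 (adjusted p of 0.0537 for Heyl and 0.0876 for Dtx4) and without cells that held other markers. Hes1, at 160.2, 187 and 115 CPM in RW and 194, 198 and 198 in aN1aN2, did not pass (adjusted p = 0.0772). No Hes5 UMI was found in any Th1 cell, and Nrarp had 75 UMIs in all.

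Antigen presentation genes gave 7 lower of 13 with aN1aN2 (17.3% over all genes), among them the immunoproteasome subunits Psmb10 (-0.97) and Psmb9 (-1.01). Cd74 and the class II genes varied with single pools: H2-Aa was at 3.29 and 1.82 CPM in aN1aN2 1 and 2 and 93.1 in aN1aN2 3, and did not pass. The summed macrophage markers in Th1 varied in the same pools, at 3.83, 3.08 and 95.1 CPM, and their part in these values was not tested. Of 15 interferon-stimulated genes 2 rose and 4 fell, of 12 immediate early genes 3 rose and 1 fell, and of 12 cholesterol synthesis genes 2 rose (Fdft1 and Insig1, by 1.32 and 1.20) and 2 fell (Fdps by 1.27 and Msmo1 by 0.83). These counts are read against 17.1% higher and 17.3% lower over all genes, and those for cholesterol synthesis are near them.

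Outside the lists, the genes below were taken by a rule of size, at 50 CPM or more with groups apart. With aJ1aJ2 the calcium-binding protein S100a6 rose from 194, 137 and 155 CPM to 399.5, 345 and 401 CPM (1.22 ± 0.15, adjusted p = 0.00647), and was at 347, 375 and 519.8 CPM in aN1aN2. Both treated groups lay above all controls. Its neighbour S100a5 rose by 1.15, a call lost with DESeq2 (adjusted p = 0.0726). The cell cycle regulator Rgcc rose by 0.78, the actin-severing protein Gsn by 0.82, and Eps8l2, Gramd2, Epb41l4aos and 2410006H16Rik by 0.94, 0.85, 0.98 and 1.00. The call of 2410006H16Rik was lost in 12 of 20 other settings, among them leaving out any 1 RW pool (adjusted p of 0.0808 to 0.134), and that of Epb41l4aos in 7. Lower with aJ1aJ2 were Tekt1, a protein of cilia, at 114, 103 and 50.1 CPM in RW, 48.4, 9.77 and 9.34 in aJ1aJ2 and 8.23, 12.1 and 7.25 in aN1aN2. The range A pools RW 3 and aJ1aJ2 1 nearly met (-2.09 ± 0.44, adjusted p = 0.0452), and the call was lost in 13 of 20 other settings. Among them were DESeq2 (-1.99, adjusted p = 0.239) and the fit of RW and aJ1aJ2 pools without the range term (-2.08, adjusted p = 0.139) and with it (-2.12, adjusted p = 0.0552). Fbp1, an enzyme of gluconeogenesis, fell by 1.13, Smtnl2 by 0.92 and Ccdc25 by 0.84. The call of Ccdc25 was lost in 9 of 20 other settings (adjusted p of 0.201 without aJ1aJ2 3) and that of Smtnl2 in 5 (adjusted p of 0.132 without aJ1aJ2 3).

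By the same rule for aN1aN2, the mitochondrial carrier Slc25a33 rose from 38.2, 62.1 and 46.6 CPM in RW to 423, 476 and 482 CPM (3.28 ± 0.15, adjusted p = 4.24e-09), with aJ1aJ2 at 56.5, 66.8 and 51.9. The receptor pools stood alone. The signalling adaptor Traf1 rose by 3.90, Setdb2 by 3.50, the noncoding host gene 2410006H16Rik by 3.27 and Spsb1 by 3.12. Agr2, a disulfide isomerase not in the list above, was at 55.9, 108 and 77.6 CPM in RW, 55.4, 32.3 and 27.4 in aJ1aJ2 and 7.13, 3.64 and 3.63 in aN1aN2 (-3.92 ± 0.38, adjusted p = 1.86e-06). Each aJ1aJ2 pool lay below each control. Esm1 (-3.57) and Ifi27l2a (-3.49) were also among the 10 largest decreases. For Esm1 20 of 1169 cells held 79.5% of the UMIs, and for Ifi27l2a RW 2 was at 117 CPM beside 21.5 and 20.1 in RW 1 and 3.

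Compared directly, aN1aN2 thyrocytes differed from aJ1aJ2 thyrocytes in the same lists. Of the 21 ER chaperones 20 were lower (median -1.95, against 11.5% lower over all genes), of the 17 fasting genes 10 were higher, and of the 12 glucocorticoid response genes 10 were higher (against 10.8% higher over all genes). Slc5a5 was lower by 2.81 ± 0.37 on the log2 scale (adjusted p = 8.20e-05) and Hspa5 by 2.48 ± 0.16 (adjusted p = 1.48e-07). Of the clock genes 4 of 14 were higher, against the same 10.8% over all genes. Tm4sf1 and AY036118, among the largest decreases here, varied widely within groups: AY036118 was at 266, 479 and 64.7 CPM in the 3 RW pools.

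The depositors also gave each cell weights for 7 topics, groups of genes that vary together, which sum to 1 in a cell. In thyrocytes topic 1 averaged 52.4%, 50.2% and 57.3% in RW, 46.3%, 36.3% and 37.5% in aJ1aJ2 and 7.01%, 5.63% and 7.40% in aN1aN2. Topic 2 ran the opposite way, at 6.96%, 7.42% and 7.12% in RW, 9.30%, 21.8% and 19.1% in aJ1aJ2 and 54.3%, 51.9% and 51.0% in aN1aN2. The groups did not overlap in either topic, and aJ1aJ2 1 was the ligand pool nearest to the controls. Topic 1 led in 366 of 425 RW cells, 257 of 396 aJ1aJ2 cells and 1 of 348 aN1aN2 cells, and topic 2 in 0, 40 and 279. The weights were fitted by the depositors on these same cells and are given as values without a test.

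Markers of other cell types were checked in the same sums. Erythroid markers summed to 621, 1639 and 95.7 CPM in RW, 132, 1094 and 162 in aJ1aJ2 and 659, 1266 and 1099 in aN1aN2. Of 62 Th1 cells with 20 or more of these UMIs, 56 were in aN1aN2. C cell markers ranged from 34.8 CPM in aJ1aJ2 1 to 2621 CPM in aJ1aJ2 3, and parathyroid markers were at 6.67 to 55.8 CPM in RW and aJ1aJ2 and 96.4 to 237 CPM in aN1aN2. The Schwann cell list, mostly S100b, was at 225 to 248 CPM in RW, 163 to 198 in aJ1aJ2 and 87.1 to 99.1 in aN1aN2, while its member Sox10 had no UMI. The ciliated cell list was at 54.8 to 119 CPM in RW, 14.4 to 51.2 in aJ1aJ2 and 12.6 to 16.0 in aN1aN2. In both lists every treated pool lay below every RW pool, and the part of these cell types in the results was not tested. The neutrophil marker Retnlg had no UMI. Leaving out the 195 cells rich in any such list kept 974 cells and gave 2789 calls of 9478 genes (29.4%) for aN1aN2 against RW, of which 2475 were among the 3653.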

How the data were processed

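Single-cell RNA was counted in thyroid cell suspensions of 9 samples, 3 per antibody group. Per the submitters' processing notes Cell Ranger and GRCm38 were used, with no version; other steps are not given in the sources used here. The deposited table holds raw UMI counts of 52636 genes in 10186 cells (500 to 131347 UMIs per cell, at most 25.0% mitochondrial), the authors' annotation table gives cell labels, and the deposited topic weights are fractions. Symbols were matched for 52403 identifiers, and the 233 without one held 0.0293% of UMIs. No doublet caller was run. The 2619 annotation lines with an unquoted comma were repaired.

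Th1 counts were summed per sample and tested with edgeR 4.0.16 (R 4.3.3) by the quasi-likelihood F test, with 3 group means over 9 samples, filterByExpr, TMM and Benjamini-Hochberg adjustment over all genes tested. SE is the log2 change divided by the root of F. Differences between Th1 and EC1 or F used a fit with sample as block and label-by-group terms. Values per sample used exact permutation tests. DESeq2 1.42.0 was an alternative. Each count carries its sampling error, so pools with fewer UMIs are less precise. Samples of 1 group had summed counts that differed beyond the sampling noise of single UMIs (chi-square per degree of freedom 1.73 to 8.92). This measure takes UMIs as independent, so differences among the cells drawn also raise it. Labels do not say whether pools were processed apart. Members, gene lists and tests were chosen with earlier results of these data known. Named genes were the 10 largest changes in each direction among calls at 50 CPM or more in 1 group whose groups did not overlap. Promoter sequences are from RefSeq. Some genes that this rule or the lists hold are not reported here.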

Additional observations from a re-analysis of the deposited data

Results flagged for a closer look

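The change in thyrocytes differed from that in other labels, by the test of the difference itself, for 988 genes against EC1 with aN1aN2, 42 against EC1 with aJ1aJ2 and 562 against F with aN1aN2. The genes below had the largest differences, in log2 units, with more than 3 UMIs in each group of both labels, and all comparisons share the Th1 cells. Of 30 single differences, those with fewer UMIs included, 16 kept their call in all 11 other settings. Losses are given below for some of the others only.

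With aJ1aJ2 the change in Th1 was above that in EC1 for Cd74 (difference 2.40, where Th1 changed by 0.02 and EC1 by -2.69; lost without RW 2, aJ1aJ2 1, aJ1aJ2 3 or aN1aN2 1), Id4 (1.49), Zyx (1.28), S100a6 (1.15) and 2410006H16Rik (1.02). It was below for Hist1h1c (-1.46), Ttc39b (-1.45), Herpud1 (-1.20), Slc3a2 (-1.12) and Cxcl12 (-1.06). Id4 and Zyx were not called in Th1, so these differences go with EC1 changes of -1.08 and -1.19.

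With aN1aN2 the change in Th1 was above that in EC1 for Setdb2 (4.07) and below it for Slc39a14 (-4.06, where EC1 changed by 3.44), Sdf2l1 (-3.76) and Gpx3 (-3.45). Gpx3 changed by 1.02 in Th1 and by 4.42 in EC1, which held 6 of its UMIs in RW and 32 in aN1aN2. The Gpx3 difference was -1.83 without aN1aN2 2 (adjusted p = 0.441), and its call was also lost without RW 1, RW 2, RW 3 or aN1aN2 1. Against F the Th1 change was below for Hbb-bt (-5.72), Igfbp3 (-5.50, where F changed by 4.53) and Sox4 (-4.84, where F changed by 3.89). Hbb-bt, a haemoglobin gene, changed by 0.14 in Th1 and by 6.06 in F, which held 16 of its UMIs in RW and 541 in aN1aN2. The Hbb-bt difference was -2.22 without aN1aN2 2 (adjusted p = 0.0724) and -3.51 without RW 2. Traf1, Gstm2, Col4a5, Acsl3, Pgf and Prkcz against EC1, and Afap1l2, Parm1, Enah, Tuba4a, Dbp, Hdac11 and Nkd1 against F, were called too, with 3 or fewer UMIs in a group, so no size is given.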

How the results depend on the processing

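The count of genes called with aJ1aJ2, 65, was 424 with no filter on low counts, 104 with DESeq2, 30 with Th3 added, 26 with only the 2 groups compared, 135 with the title number range as a term in that fit of 2 groups, 649 in range B alone and 191 without cells that held other markers, and 1 to 530 when 1 sample was left out. The higher share of its calls, 63.1%, was 46.0% with no filter, 49.0% with DESeq2 and 42.2% with the range term. The causes were not tested. For aN1aN2 against RW, 3653, every setting stayed between 2689 and 4029. For aN1aN2 against aJ1aJ2, 2374, leaving out 1 sample gave 1548 to 2369. The EC1 difference with aJ1aJ2, 42, was 111 with no filter and 16 to 83 when 1 sample was left out, that with aN1aN2, 988, was 572 to 1100, and the F difference, 562, was 354 to 727.

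Replicate numbers are shared between groups but nothing in the labels makes them a pairing: the deviations of the 3 pairs with the same number in their titles correlated at 0.024, -0.013 and -0.047. With the replicate number as a block (RW 3 and aJ1aJ2 1, which have none in their titles, in 1 shared block), edgeR called 0 genes for aJ1aJ2 against RW (600 at an unadjusted p under 0.05, and 104 by DESeq2 without the block), 2826 for aN1aN2 against RW and 1006 for aN1aN2 against aJ1aJ2.

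The share of Th1 cells changed sign easily. Its difference with aJ1aJ2, -0.92 points, ran from -3.75 to 1.02 when 1 sample was left out, with 0.271 without RW 1, 0.719 without RW 3 and 1.02 without aJ1aJ2 4. With aN1aN2, 0.82 points, it ran from -2.01 to 2.74, with -0.296 without aN1aN2 1, and was -3.89 with Th3 added. Of single genes, Hlf turned to -0.0583 with aN1aN2 without cells that held other markers. Of 1976 values for 110 genes named with aN1aN2, 1903 kept their call, and of 580 values for 29 genes with aJ1aJ2, 418 did. Small pools (62 to 193 cells) and lower depth in aN1aN2 limit what low genes can show.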
